A study of Mus musculus with 11 samples.

Results

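Of the genes of striatal projection neurons, 10 were followed in the embryonic mouse cortex after deletion of Chd8: Tac1, Penk, Isl1, Ebf1, Zfhx3, Meis2, Foxp1, Foxp2, Rarb and Ikzf1. They were chosen by symbol, with earlier results of these data known. Counts of them set beside shares of all loci are thus descriptions and not tests. Each of the 10 had a locus of its own among the 24138 loci of the deposited expression table. The tissue was cortex dissected from E14.5 embryos. The 2 knockout libraries (cKO) carried the genotype Chd8 c/c, Emx1-cre, in which both alleles are conditional and a Cre recombinase is driven by Emx1, a gene of dorsal telencephalic progenitors. The 3 control libraries carried conditional alleles without a Cre label. Control 1 was Chd8 c/+, and controls 2 and 3 were Chd8 c/c. The labels do not say whether a library came from a single embryo, a litter or a pool, so errors and p-values measure the spread between these libraries only. A treatment field of the labels names an Eed knockout, whereas titles, genotypes and extraction text name Chd8.

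Striatal projection neurons are the inhibitory output neurons of the striatum. They arise from progenitors of the lateral ganglionic eminence in the ventral telencephalon, next to the cortex, and not from the dorsal progenitors in which Emx1 is active. Neurons of the direct pathway make substance P from Tac1 and depend on factors such as Isl1 and Ebf1, while those of the indirect pathway make enkephalin from Penk. Meis2, Foxp1, Foxp2, Zfhx3, Rarb and Ikzf1 encode transcription factors or nuclear receptors of both or either type, and several of them are also used by cortical neurons, by the thalamus or, for Ikzf1, by blood cells.

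Expression was given as FPKM, fragments scaled to transcript length and to the mapped fragments of the library, a scale on which genes can be compared with each other. Sequencing depth is unknown, since the table carries no counts. Chd8 itself was between 30.0 and 31.8 FPKM in the controls and was 19.3 and 15.1 FPKM in cKO 1 and 2. Cortical genes were present in every library, though not at an even level. The cortical factor Emx1 was 37.1, 165 and 89.8 FPKM in controls 1 to 3. It was 34.4 and 27.3 FPKM in cKO 1 and 2, below every control. Only the cKO libraries carry Emx1-cre. An effect of that allele on Emx1 itself cannot be told apart here from a difference in cortical cells. Controls 1 and 2 stood apart in lists of marker genes. Control 1 held 216 FPKM summed over 9 genes of thalamus and hypothalamus, against 16.4 in control 2, 49.1 in control 3, and 20.9 and 20.01 in cKO 1 and 2. Control 2 held the largest sum over 12 genes listed for dorsal cortical progenitors, 1945 FPKM. The sum was 1021 and 1390 FPKM in controls 1 and 3 and 922 and 872 FPKM in cKO 1 and 2. Vim, a gene not limited to dorsal progenitors, made up 816 of the 1945 FPKM in control 2. Of those 12 genes, 11 were highest in control 2, as were 34.8% of all tested loci. Summed over 15 genes of cortical neurons, control 2 held 1209 FPKM and the other libraries 606 to 941 FPKM. Of these 15 genes, 12 were highest in control 2. Control 2 also held the largest sum over 9 genes of the meninges, 28.2 FPKM against 5.64 to 8.99 FPKM in the other 4 libraries. Values of whole cortex cannot tell a change in the number of cells of a type from a change in RNA per cell.

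All 10 genes had their lowest value of the 5 libraries in control 2, where 28.0% of the 12672 tested loci did. Rarb, Tac1, Meis2 and Ikzf1 were higher in both cKO libraries than in every control, at 2.85, 2.28, 1.27 and 1.62 times the control mean. Ebf1, Zfhx3, Foxp2 and Penk were highest in control 1, and Isl1 and Foxp1 were highest in a cKO library while the other cKO library lay within the controls. Thus 4 of 10 genes lay above every control, beside 13.4% of tested loci, and none lay below, beside 15.6%. The log2 change, taken as cKO minus control on log2(FPKM + 1), was positive for 8 of 10 genes, beside 46.9% of tested loci. Its median was 0.44, beside -0.02 over all tested loci.

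No gene of the 10 passed limma's test with Benjamini-Hochberg adjustment over all 12672 tested loci at an adjusted p under 0.05. The test called 6 loci in all, or 0.0473% of those tested. Without adjustment the limma p was 0.00166 for Rarb and 0.0424 for Meis2, 2 of 10 genes under 0.05 and higher, beside 3.08% of all tested loci. The authors' deposited table marked Rarb, Tac1 and Isl1 as higher and Zfhx3 as lower. That is 4 of 10 genes in either direction, beside 4.21% of the 13511 loci compared there, and 3 of 10 in the higher direction, beside 1.21%. In the authors' deposited table the other 6 genes had q-values between 0.119, for Foxp1, and 0.977, for Penk. Leaving out control 1 put 7 of the 10 genes above the remaining controls, and 27.8% of tested loci were then above as well. Leaving out control 2 left 4 genes above, beside 18.2% of tested loci.

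**Figure D1:**
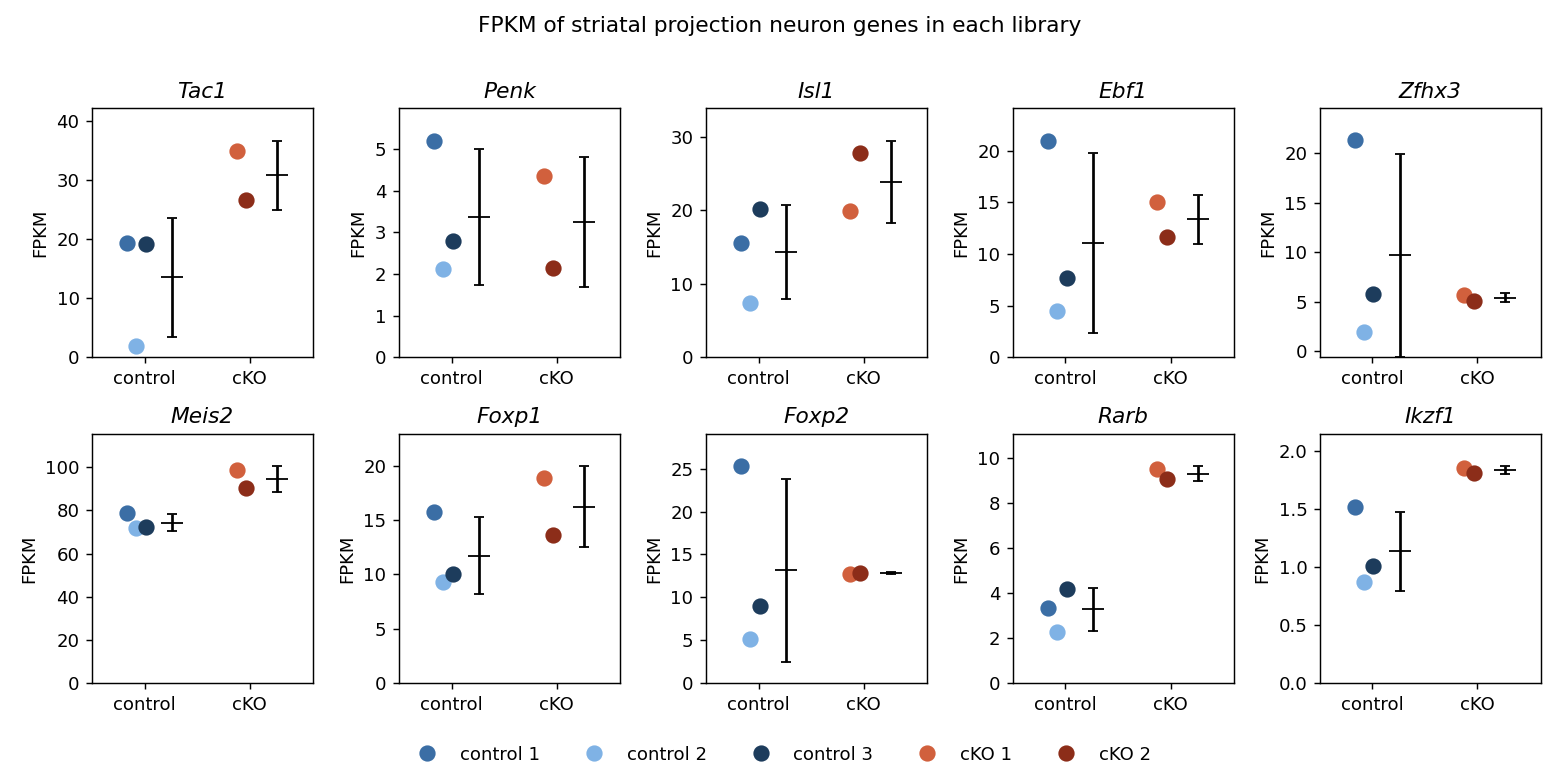
Each panel plots the FPKM of a gene in the 3 control and 2 cKO libraries (coloured points, set apart sideways only for legibility), with the group mean and SD in black. The lowest point of every panel is control 2, and the cKO points lie clear of the controls for Rarb, Tac1, Meis2 and Ikzf1. The SD of the Zfhx3 controls is larger than their mean.

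Across the genes, levels in the controls ranged from Meis2, at 74.4 ± 4.002 FPKM (mean ± SD, n = 3), above 91.8% of tested loci, to Ikzf1, at 1.13 ± 0.342 FPKM, above 2.08%. In between, the means of Isl1, Tac1, Foxp2, Foxp1, Ebf1 and Zfhx3 ran in that order from 14.3 to 9.70 FPKM. Their SDs, 3.54 to 10.7 FPKM, exceeded every step between neighbours in that order. Penk and Rarb lay lower in the controls, at 3.37 and 3.28 FPKM. In the cKO libraries Tac1 was second to Meis2, and Rarb stood above Zfhx3 and Penk. The controls themselves differed by more than 3-fold between the lowest and the highest library for 4 of the 10 genes, Tac1, Ebf1, Zfhx3 and Foxp2, beside 6.82% of tested loci.

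Of the neuropeptide precursors, Tac1 encodes the precursor of substance P and neurokinin A (locus XLOC_017040, chromosome 6, 7555061 to 7562978 in GRCm38). Tac1 was 19.4, 1.95 and 19.2 FPKM in controls 1 to 3 and 34.9 and 26.7 FPKM in cKO 1 and 2. Both cKO libraries were above every control, while control 1, the highest control, was 9.96 times control 2, the lowest. The group means were 13.5 ± 10.03 (SD, n = 3) and 30.8 ± 5.84 FPKM (SD, n = 2). The log2 change was 1.56 (SE 0.90, limma adjusted p = 0.577), and an exact two-sided permutation test over the 10 ways to assign 2 of the 5 libraries gave p = 0.3. Without control 2 the cKO mean was 1.60 times that of the controls and the log2 change was 0.63. The authors' deposited table gave Tac1 a log2 fold change of 1.19 and a q-value of 0.0137.

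Penk, the proenkephalin gene (chromosome 4, 4133536 to 4138815), did not follow Tac1. Penk was 5.20, 2.11 and 2.80 FPKM in controls 1 to 3 and 4.36 and 2.15 FPKM in cKO 1 and 2. The cKO libraries spanned most of the range of the controls. The log2 change was -0.03 (SE 0.38, limma adjusted p = 0.982), and it took either sign as libraries were left out, from -0.41 without cKO 1 to 0.36 without cKO 2. Among 14 genes of neuropeptides and their receptors, 7 of them tested, Tac1 was the single gene above every control, and Pomc, the proopiomelanocortin precursor, was the single gene below. Of all tested loci, 13.4% lay above and 15.6% below. Pomc was 4.79, 5.48 and 7.23 FPKM in controls 1 to 3 and 2.53 and 1.93 FPKM in cKO 1 and 2. Pdyn, the prodynorphin gene of direct-pathway neurons, was 2.88, 0.182 and 1.57 FPKM in controls and 1.46 and 0.722 FPKM in cKO libraries, and overlapped. Tacr1, the substance P receptor, was between 0.393 and 1.57 FPKM in the controls and 0.968 and 1.31 FPKM in the cKO.

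The 250 bases before the RefSeq start of Tac1 (GRCm38.p6, chr6:7554811-7555060, plus strand) are shown because this gene had the largest log2 change of the 10. Capitals mark TAATTA, the core bound by homeodomain factors of the Dlx and LIM families, which begins 100 bases before the start.

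Tac1: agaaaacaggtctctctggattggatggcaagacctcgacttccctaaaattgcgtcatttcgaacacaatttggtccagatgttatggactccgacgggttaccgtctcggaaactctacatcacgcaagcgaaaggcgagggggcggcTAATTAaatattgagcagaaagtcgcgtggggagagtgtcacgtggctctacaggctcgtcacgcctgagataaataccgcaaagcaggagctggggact

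The homeodomain core was found in 4.84% of 32851 such windows of the mouse genome. Windows were at hand for 8 of the 10 genes, 12 windows in all, and not for Penk and Foxp2. A window at an internal start of Foxp1 also held that core, and held the Meis motif TGACAG (15.9% of all windows) as well. The Ikaros motif TGGGAA (21.6%) was found in a window of Ebf1, and the TATA box TATAAA (12.4%) in that of Meis2. No match in the 12 windows was found for the cyclic AMP response element TGACGTCA (1.55% of all windows), the forkhead motif TGTTTAC (3.17%) and the early B-cell factor palindrome (0.779%), TCCC and GGGA with 2 bases between them. Both strands were searched, and a match of letters is a description of the window, not a bound site.

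Isl1 encodes a LIM homeodomain factor of direct-pathway neurons, and also of cholinergic neurons of the basal forebrain (chromosome 13, 116298270 to 116309688). Isl1 was 15.5, 7.40 and 20.1 FPKM in controls 1 to 3 and 19.9 and 27.8 FPKM in cKO 1 and 2. It was the one gene of the set with its highest value in cKO 2, while cKO 1 lay just under control 3. Its log2 change was 0.78 (SE 0.42, limma adjusted p = 0.575), or 0.40 without control 2. The authors' deposited table gave a log2 fold change of 0.73 and a q-value of 0.0241. Nkx2-1 and Lhx8, genes of the medial ganglionic eminence named after their values were seen, had the same lowest and highest library. Not all genes listed with them did. Lhx6 was lowest in control 1, at 14.7 FPKM against 25.1 FPKM in control 2. Sst was highest in cKO 1, at 478 FPKM against 316 FPKM in cKO 2. Nkx2-1 was 21.3, 4.12 and 46.7 FPKM in the controls and 14.4 and 64.5 FPKM in cKO 1 and 2. Lhx8, a factor of cholinergic neurons, was 4.40, 0.105 and 14.04 FPKM in the controls and 6.74 and 22.5 FPKM in cKO 1 and 2. The part of such cells in the Isl1 values was not tested.

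Ebf1, an early B-cell factor that guides the differentiation of direct-pathway neurons (chromosome 11, 44618100 to 45008096), differed 4.64-fold between the lowest and the highest control. Ebf1 was 20.95, 4.52 and 7.71 FPKM in controls 1 to 3 and 15.02 and 11.7 FPKM in cKO 1 and 2. The cKO libraries lay between control 3 and control 1. For Ebf1 the log2 change was 0.48 (SE 0.58, limma adjusted p = 0.752), 1.04 without control 1 and 0.04 without control 2. Its relatives Ebf2 and Ebf3 were far higher in control 1 than elsewhere. Ebf3 was 75.5 FPKM in control 1, 2.70 and 4.49 FPKM in controls 2 and 3, and 6.99 and 5.19 FPKM in cKO 1 and 2. Ebf2 was 13.98 FPKM in control 1 and between 0.682 and 1.60 FPKM in the other 4 libraries. Ebf4 had another pattern, with 9.75, 9.61 and 10.03 FPKM in the controls and 5.32 and 4.67 FPKM in the cKO (limma adjusted p = 0.518). Its unadjusted limma p was 7.8e-04.

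Zfhx3, which encodes a large zinc finger and homeodomain protein of postmitotic neurons (chromosome 8, 108279311 to 108961636), was 21.3, 1.96 and 5.81 FPKM in controls 1 to 3. It was 5.72 and 5.09 FPKM in cKO 1 and 2, between control 2 and control 3. The authors' deposited table marked Zfhx3 as lower, with a log2 fold change of -0.84 and a q-value of 0.00331. In the limma fit its log2 change was -0.26 (SE 0.82, adjusted p = 0.909). Without control 1 the cKO mean was 1.39 times that of the remaining controls and the log2 change turned to 0.51, and without control 2 the log2 change was -0.95. Zfhx4, a relative, was also highest in control 1, at 19.1 FPKM against 3.08 to 6.46 FPKM in the other 4 libraries, as was Zfhx2, at 25.2 FPKM against 7.25 to 15.8 FPKM.

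Foxp2, a forkhead factor of striatal, deep cortical and thalamic neurons (chromosome 6, 14901349 to 15441977), resembled Ebf1 and Zfhx3. Foxp2 was 25.3, 5.16 and 9.01 FPKM in controls 1 to 3 and 12.7 and 12.9 FPKM in cKO 1 and 2. The cKO libraries nearly coincided and lay within the controls. In limma the log2 change was 0.23 (SE 0.60, limma adjusted p = 0.890), 0.81 without control 1 and -0.24 without control 2.

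Ebf1, Zfhx3 and Foxp2 thus shared control 1 as their highest library, and 6 of the 8 tested genes of thalamus and hypothalamus were highest there too, beside 24.1% of all tested loci. Irx1 and Barhl1, factors of the posterior diencephalon and midbrain, were 34.1 and 30.7 FPKM in control 1 and at most 0.890 and 0.584 FPKM in any other library. Tcf7l2, a factor of thalamic neurons, was 78.5 FPKM in control 1, 2.48 and 11.5 FPKM in controls 2 and 3, and 3.36 and 3.98 FPKM in cKO 1 and 2. The part of such tissue in the values of the 3 genes was not tested.

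**Figure D2:**
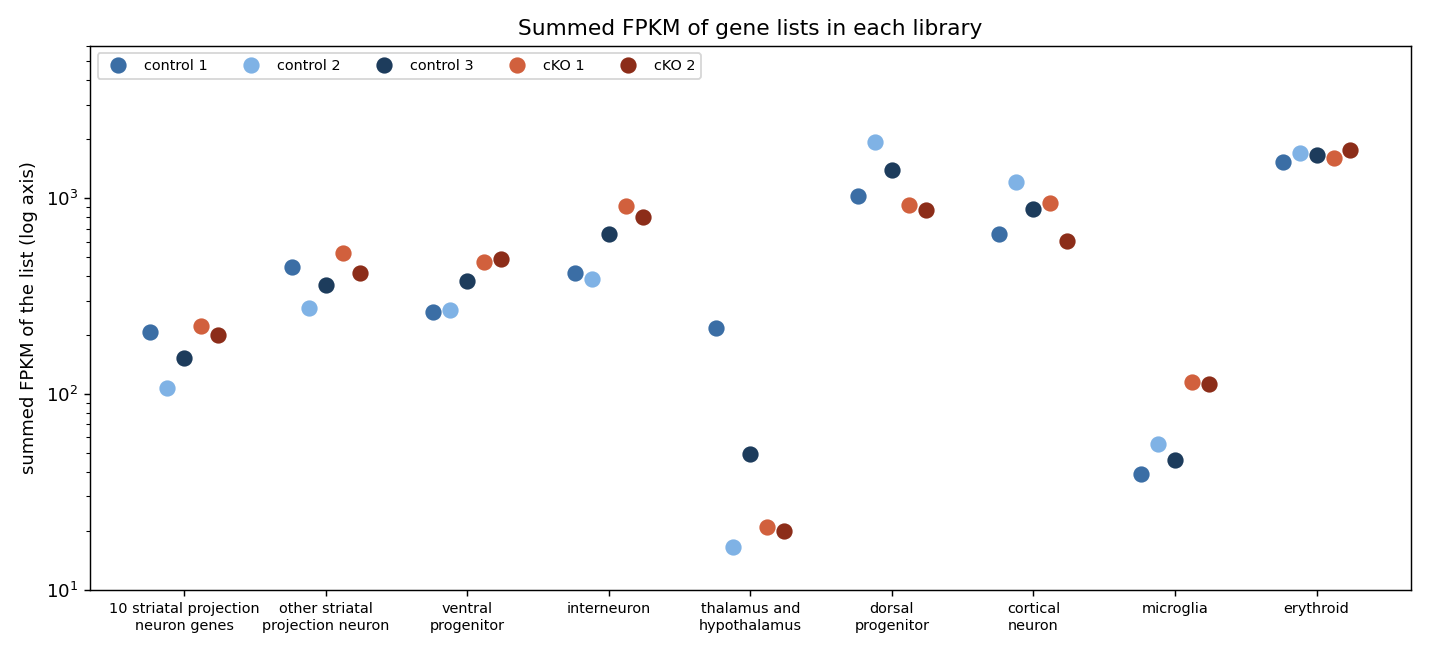
FPKM summed over each gene list is plotted on a log axis for the 5 libraries (points). High genes weigh most in a sum, as Meis2 does among the 10. Control 1 stands above the others for thalamus and hypothalamus (216 FPKM), control 2 is lowest for the 10 striatal projection neuron genes (108 FPKM) and highest for dorsal progenitors, and both cKO libraries are highest for microglia.

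Foxp1, the forkhead relative expressed in striatal projection neurons and in cortical neurons (chromosome 6, 98925342 to 99522746), varied less. Foxp1 was 15.8, 9.32 and 10.02 FPKM in controls 1 to 3 and 18.8 and 13.6 FPKM in cKO 1 and 2. The second cKO library lay under control 1. Its log2 change was 0.46 (SE 0.27, limma adjusted p = 0.578), and it ran from 0.24 without cKO 1 to 0.68 without cKO 2. Foxp4, a relative with no place in the set, went the other way, with both cKO libraries below every control, beside 15.6% of tested loci. Foxp4 was 49.0 and 32.4 FPKM in cKO 1 and 2 against 49.5 to 74.9 FPKM in the controls (limma adjusted p = 0.575). The first cKO library lay just under control 1.

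Meis2, a TALE homeodomain factor of the lateral ganglionic eminence and its neurons (chromosome 2, 115861264 to 116067537), was the most abundant and the most even of the genes. Meis2 was 79.03, 72.0 and 72.2 FPKM in controls 1 to 3 and 98.7 and 90.4 FPKM in cKO 1 and 2. Both cKO libraries lay above every control, by 11.4 FPKM at the nearest. The difference was small in size, 1.27 times the control mean and a log2 change of 0.34 (SE 0.13, limma adjusted p = 0.575). An exact two-sided permutation test gave p = 0.1, the smallest value that these 10 assignments allow. The log2 change stayed between 0.28 and 0.40 when any single library was left out.

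Relatives of Meis2 did not share this. Of 7 Meis and Pbx genes, Meis2 alone lay above every control, beside 13.4% of tested loci. Meis3, Pbx2 and Pbx4 lay below, beside 15.6% of tested loci. Meis3 was 48.8, 49.2 and 55.1 FPKM in the controls and 33.2 and 34.4 FPKM in the cKO (limma adjusted p = 0.575). Pbx3, a cofactor expressed in striatal neurons, was 87.3, 15.9 and 41.6 FPKM in the controls and 64.6 and 57.0 FPKM in the cKO, the order of libraries seen in Ebf1.

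Rarb had the smallest p of the set. It encodes retinoic acid receptor beta, a ligand-activated nuclear receptor needed in the developing striatum (locus XLOC_006461, chromosome 14, 16430839 to 17082331). Rarb was 3.36, 2.27 and 4.20 FPKM in controls 1 to 3 and 9.55 and 9.11 FPKM in cKO 1 and 2. The lower cKO library was 4.91 FPKM above the highest control, a gap larger than the whole range of the controls. The group means were 3.28 ± 0.965 (SD, n = 3) and 9.33 ± 0.316 FPKM (SD, n = 2). Rarb had a log2 change of 1.30 (SE 0.23), which ranked 32nd by p among all tested loci, with a limma adjusted p of 0.575 and an exact two-sided permutation p of 0.1, the smallest possible. It lay between 1.12 and 1.45 when any single library was left out, and was 1.52 with a pseudocount of 0.1. The authors' deposited table gave a log2 fold change of 1.51 and a q-value of 0.00331.

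**Figure D3:**
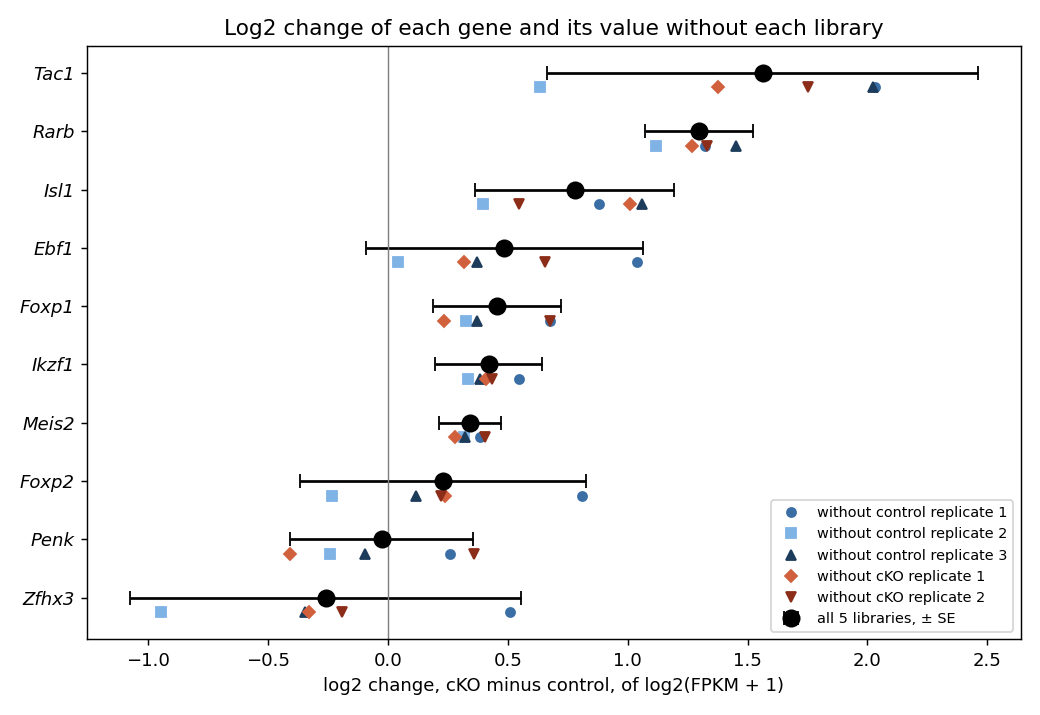
The log2 change of each gene (cKO minus control, black points with SE, 5 libraries) is plotted above its value with each library left out (coloured symbols). Rarb and Meis2 keep their symbols close together and right of 0, while Tac1 moves from 1.56 to 0.63 without control 2 and Zfhx3 crosses 0 without control 1.

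An internal start of Rarb (GRCm38.p6, chr14:16575477-16575726, minus strand, within the span of the gene) is shown because Rarb is itself a known target of retinoic acid. Capitals mark a retinoic acid receptor repeat (GTTCA, then 6 bases of any kind, then GTTCA), which begins 52 bases before the start. The pattern was added to the search after the values were seen, with Rarb already known as such a target, so its match in Rarb tests nothing. As a description, the pattern occurred in 22 of the 32851 windows (0.0670%, both strands), and in no other window of the 10 genes.

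Rarb: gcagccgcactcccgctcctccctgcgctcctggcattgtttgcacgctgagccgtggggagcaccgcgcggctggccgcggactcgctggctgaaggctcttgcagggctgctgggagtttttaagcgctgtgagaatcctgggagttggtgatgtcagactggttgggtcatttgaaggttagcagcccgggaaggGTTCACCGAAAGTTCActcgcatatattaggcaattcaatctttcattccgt

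Other genes of the retinoid pathway were measured beside Rarb. Of the 6 retinoid receptors, Rara and Rarb lay above every control, beside 13.4% of tested loci, and Rxrb below, beside 15.6%. Rara was 7.04, 7.37 and 6.95 FPKM in the controls and 10.2 and 8.13 FPKM in the cKO (limma adjusted p = 0.575). Rxrg, the partner receptor of striatal neurons, was 5.09, 3.49 and 7.26 FPKM in the controls and 12.97 and 3.56 FPKM in the cKO, so its cKO libraries disagreed. Of 11 genes of retinoid synthesis, breakdown and binding, 8 were tested, and none was called. Above every control lay 2 of them, beside 13.4% of tested loci. Aldh1a3, an enzyme that makes retinoic acid in the lateral ganglionic eminence, was 1.35, 0.368 and 1.80 FPKM in the controls and 3.41 and 3.42 FPKM in the cKO (limma adjusted p = 0.575). Stra6, a retinol transporter, was the other, with 2.06 to 2.99 FPKM in the controls and 3.26 and 3.10 FPKM in the cKO. Cyp26b1, which degrades retinoic acid, was 15.4, 1.90 and 3.14 FPKM in the controls and 5.66 and 3.86 FPKM in the cKO.

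Ikzf1, which encodes the zinc finger factor Ikaros of lymphocytes, other blood cells and striatal enkephalin neurons (chromosome 11, 11684962 to 11772930), was the lowest gene of the set. Ikzf1 was 1.52, 0.872 and 1.004 FPKM in controls 1 to 3 and 1.85 and 1.81 FPKM in cKO 1 and 2. The gap between the groups was 0.289 FPKM. The log2 change was 0.42 (SE 0.22, limma adjusted p = 0.575), and the exact two-sided permutation p was 0.2. On log2(FPKM + 0.1), which compresses low values less, it was 0.68. Microglial genes were also higher in the cKO libraries. All 13 tested genes of a list of 16 had a positive log2 change, beside 46.9% of tested loci, and none was called by limma over all loci. In 12 of the 13 tested genes both cKO libraries lay above every control, beside 13.4% of tested loci. With the 3 genes below the filter included, 15 of the 16 did. The summed level of the 16 genes was 38.9 to 55.6 FPKM in the controls and 116 and 113 FPKM in cKO 1 and 2. Laptm5, a lysosomal protein of blood cells and microglia, was 3.59 to 4.10 FPKM in the controls and 8.93 and 8.80 FPKM in the cKO. Of 8 lymphoid genes, 7 were below the filter, and 3 of these, Cd3e and Cd3g among them, were listed at 0 in all 5 libraries. Cd79b, of the B-cell receptor, was the single gene of that list above every control, at 0.125 to 0.145 FPKM in the controls and 0.255 and 0.277 FPKM in the cKO. Summed, the lymphoid list was 22.03 FPKM in control 1, of which Gata3, a gene also of midbrain and thalamic neurons, made up 21.7, and 0.313 to 0.592 FPKM in the other 4 libraries. The part of microglia or lymphoid cells in the Ikzf1 values was not tested.

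A further 30 genes of striatal projection neurons were followed, and 25 of them were tested. Some of them, such as Sp9, are also used by other cells. No gene of that list was called by limma over all loci, and 3 had an unadjusted p under 0.05. Of the 25, 22 were higher and 3 lower by the log2 change (median 0.28), where 46.9% of tested loci were higher. Both cKO libraries lay above every control for 6 of the 25, beside 13.4% of tested loci, and below for none, beside 15.6%. The lowest value was in control 2 for 18 of the 25, beside 28.0% of tested loci. Sp9, a zinc finger factor of indirect-pathway precursors and of interneurons, was 20.5, 25.8 and 30.7 FPKM in the controls and 43.9 and 47.6 FPKM in the cKO. Drd1, the dopamine receptor of the direct pathway, was 1.32, 1.76 and 1.30 FPKM in the controls and 2.74 and 2.42 FPKM in the cKO. The adjusted p of each was 0.575 in limma, and the unadjusted p was 0.00647 for Sp9 and 0.0331 for Drd1.

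Drd2 and Adora2a, receptors of the indirect pathway for dopamine and adenosine, overlapped between the groups, unlike Sp9 and Ikzf1. Drd2 was 3.80, 0.746 and 2.95 FPKM in the controls and 3.66 and 3.03 FPKM in the cKO. Adora2a was 2.35, 3.78 and 3.61 FPKM in the controls and 6.37 and 3.70 FPKM in the cKO. Whether the 2 pathways differed from each other was not tested. Gad2, an enzyme of GABA synthesis, was 31.3, 13.2 and 26.3 FPKM in the controls and 36.9 and 47.4 FPKM in the cKO, whereas Gad1 overlapped, with 41.3 and 37.8 FPKM in the cKO and 38.5 FPKM in control 1. Ppp1r1b, which encodes DARPP-32 of mature striatal neurons, was highest in control 2, at 23.8 FPKM.

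Genes that mark the source and the neighbours of these neurons were measured in the same libraries. Of 12 genes of ventral progenitors, 11 were higher in the cKO by the log2 change (median 0.71), beside 46.9% of tested loci. Above every control lay 8 of the 12, beside 13.4% of tested loci. Dlx5, a homeodomain factor of ventral precursors, was 31.6, 29.6 and 49.6 FPKM in the controls and 67.8 and 85.2 FPKM in the cKO. Gsx2, which sets the identity of lateral ganglionic eminence progenitors, was 6.75, 7.84 and 7.36 FPKM in the controls and 11.1 and 11.6 FPKM in the cKO. Summed over the list, the controls held 262 to 379 FPKM and the cKO libraries 472 and 487 FPKM. Of 15 interneuron genes, 14 were higher by the log2 change (median 0.77), beside 46.9% of tested loci. The sums over these genes were 387 to 656 FPKM in the controls and 800 and 911 FPKM in the cKO. Of these sums Sst alone gave 139 to 293 FPKM in the controls, and 478 and 316 FPKM in cKO 1 and 2. The 12 genes listed for dorsal progenitors had a median log2 change of -0.84, and 9 of them lay below every control, beside 15.6% of tested loci. Emx1, which drives the Cre carried only by the cKO libraries, was among the 9. The 10 striatal projection neuron genes, summed, gave 207, 108 and 152 FPKM in controls 1 to 3 and 222 and 201 FPKM in cKO 1 and 2, so that control 1 lay between the cKO libraries. Of these sums Meis2 alone made up 79.0, 72.0 and 72.2 FPKM in controls 1 to 3, and 98.7 and 90.4 FPKM in cKO 1 and 2. No gene of these lists was called over all loci. The part of these cells in the values of the 10 genes was not tested.

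Tac1, Zfhx3 and Foxp2 spanned at least 2 log2 units over the 5 libraries, and the 5 tested loci most like each were sought. Likeness was the largest difference in any library between log2(FPKM + 1) values centred on each locus mean, a description over 5 libraries. Nearest to Tac1 was Nts, the neurotensin gene, which never differed by more than 0.19, at 6.09, 0.283 and 6.48 FPKM in the controls and 12.4 and 9.57 FPKM in the cKO. Next was Fezf1, a zinc finger factor of the developing forebrain, at 4.77, 0.0577 and 6.95 FPKM in the controls and 8.98 and 7.63 FPKM in the cKO. Fxyd7, Trank1 and Vsnl1 followed, and differed by 0.52 to 0.69. These 5 loci were low in control 2, as Tac1 was.

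Nearest to Zfhx3 were a locus that joins Gfra4 and Mir6973b, then Spon1, Grin2d, Epha8 and Gfra1, with differences of 0.17 to 0.29. Gfra1, a receptor of the neurotrophic factor GDNF, was 16.0, 1.40 and 5.57 FPKM in the controls and 4.28 and 5.48 FPKM in the cKO. Among the nearest to Foxp2 were Grm3, Tmem163, Unc5c and Rnf152, with differences of 0.089 to 0.16. Grm3, a metabotropic glutamate receptor, was 5.55, 0.619 and 1.49 FPKM in the controls and 2.67 and 2.85 FPKM in the cKO. None of the 15 loci was among the 10 genes.

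**Figure D4:**
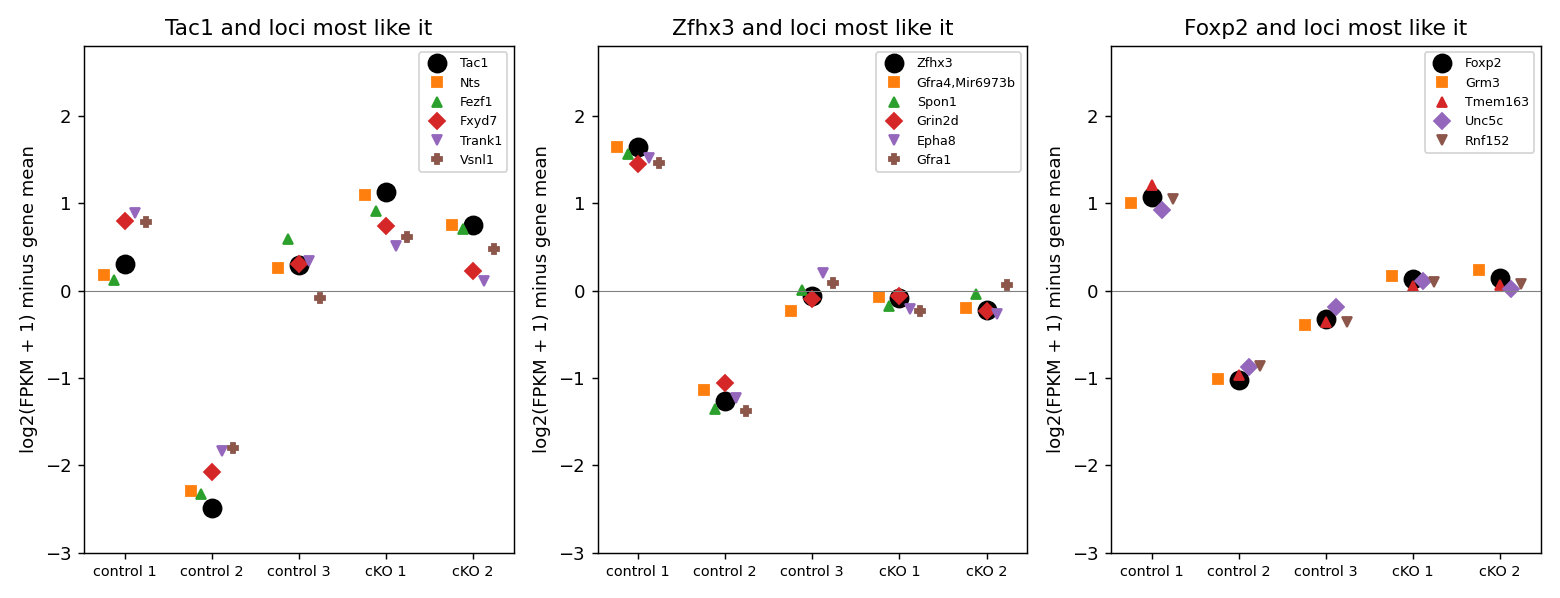
Log2(FPKM + 1) minus the mean of each locus is plotted for the 5 libraries, for Tac1, Zfhx3 and Foxp2 (black) and the loci most like each that the text names (coloured symbols). The Tac1 panel is set apart by control 2, which lies far below the mean of each locus shown, and the other panels by control 1 above and control 2 below.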

How the data were processed

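RNA of E14.5 cortex was measured in 3 control and 2 cKO libraries. The series also has 6 samples of chromatin accessibility, not analysed here. The authors deposited FPKM per locus and library and mean FPKM per group. The unit was read from the values and locus identifiers, since the file header does not name it. Per the file headers, each locus also carries the authors' own comparison: a q-value and p-value, the log2 fold change, and the score of their test. Per the submitters' processing notes, CASAVA, TopHat and Cufflinks were used with mm10. The annotation and the strand setting were not given in the sources used here, so overlapping or antisense genes cannot be separated. FPKM depends on what else a library holds, and its low values gave no whole reads, so no count-based test was made. The ratio of the lowest values to control 1 clustered only loosely, with 17.6% to 53.2% of loci near the commonest ratio.

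A minimum of 1 FPKM on the mean over the libraries kept 12672 of 24138 loci, among them all 10 genes. Values were taken as log2(FPKM + 1), which understates changes of low genes, and limma 3.58.1, run in R 4.3.3 with its intensity trend, compared the groups, with Benjamini-Hochberg adjustment over all tested loci. The procedure was also run on simulated data with known changes. The outcome of that run is not reported here, so the power of the test is not stated. The genes and lists were chosen with earlier results of these data known. Named genes were the 10, the relatives of each, up to 4 genes per list with the smallest p, and the 5 loci nearest in pattern to genes spanning 2 log2 units. Nkx2-1, Lhx8, Lhx6, Sst, Vim, Drd2, Adora2a, Gad1, Ppp1r1b, Cyp26b1, Irx1, Barhl1 and Emx1 were chosen as examples after their values were seen. Lists of erythroid, vascular and meningeal genes had median log2 changes of 0.04, 0.09 and -0.48, and cortical neuron genes -0.32. Some genes of these lists are not reported here. Gene spans and the 250 bases before starts came from RefSeq, GRCm38.p6, matched by symbol. Alternatives were another pseudocount, other filters, other scalings, no trend, the replicate number as a block, and each library left out.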

Additional observations from a re-analysis of the deposited data

How the results depend on the processing

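None of the 10 genes was called by limma under any of the 12 alternatives, and the lowest adjusted p was 0.315, without control 1. Rarb, Tac1, Meis2, Ikzf1, Isl1, Foxp1 and Ebf1 kept a positive log2 change under every alternative in which they were tested. Penk took a positive sign with upper quartile scaling (0.017), without control 1 (0.26) and without cKO 2 (0.36), Foxp2 a negative sign without control 2 (-0.24), and Zfhx3 a positive sign without control 1 (0.51). The cause was not tested. Single libraries left out gave -0.41 to 0.36 for Penk, -0.95 to 0.51 for Zfhx3 and -0.24 to 0.81 for Foxp2. The median of the 10 genes was 0.30 to 0.74 when single libraries were left out. The number of genes above every control was then 4 to 7, beside 15.1% to 27.8% of tested loci, and that of all loci called was 9 to 37. With the replicate number as a block, 3 loci and none of the 10 genes were called. Replicate numbers are shared only by 2 pairs, whose deviations correlated at -0.07 and -0.11, and nothing in the labels pairs them. In that fit control 3 has no partner, so its estimates equal those without control 3. A lone cKO library was assumed to vary like the controls. Penk and Ikzf1 fell under a filter of 5 FPKM and have no value there.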
